A study of Mus musculus with 23 samples.

Results

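The genes described here encode collagens, laminins, integrin chains, fibulins, matrix proteases with their inhibitors, and lysyl oxidases. They were chosen by the start of their symbol on the platform (Col, Lama, Lamb, Lamc, Itga and Itgb before a digit, and Fbn, Fbln, Mmp, Timp, Adamts and Lox), with the brightest probe taken for each gene. Of 80 matching symbols, 78 passed a detection p of 0.01 on 1 or more of 23 arrays and 2 (Adamts16 and Col25a1) on none, among 11494 genes with a named probe. The 78 are 27 collagen chains, 6 laminin chains, 12 genes with an integrin name, 2 fibulins, 14 matrix metalloproteinases (MMPs), 4 tissue inhibitors of metalloproteinases (TIMPs), 10 ADAMTS or ADAMTS-like genes and 3 lysyl oxidases. No fibrillin was among them. Among the 12 integrin names, 10 are receptor chains, while Itgb1bp1 and Itgb3bp are named for binding an integrin tail.

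RNA of mouse pluripotent stem cell lines was hybridized to Illumina bead arrays, 1 array per line and state. Embryonic stem cells (ESCs) came from 6 lines, 3 heterozygous (PAN1, PUM3, CHE4) and 3 null (JAG1, JAG2, B12) for Blimp1, each grown in LIF with serum and in 2i/LIF, a medium with a pair of kinase inhibitors. Epiblast stem cells (epiSCs), from the postimplantation epiblast and kept in Activin A and bFGF, came from 3 heterozygous (BL3, BL4, BL7) and 2 null lines (BL2, BL6). ESC-like cells reverted from epiSCs (rESCs) came from 2 heterozygous (BL3, BL7) and 3 null lines (J2.3, BL2, BL6), and 1 array held wild-type mouse embryonic fibroblasts (MEFs). All carry the mixed strain background C57Bl6/CBA/129 in the labels, whereas the methods give another strain for the MEFs. The labels name no medium for the ESC arrays without 2i, which are called serum here after the methods. EpiSCs and rESCs were grown on MEF feeders, and the feeder status of the ESC arrays is not given in the sources used here. RNA was taken from whole cultures, so a smaller share of cells of some type and less RNA per cell cannot be told apart, and p-values measure the spread between lines. The Blimp1 probe was not analysed here.

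The extracellular matrix is built from collagens and laminins that cells secrete, cross-link and remodel. Collagen IV and laminins assemble into the basement membrane, the sheet beneath epithelia and beneath the early epiblast, and integrins, receptors of an alpha and a beta chain, bind it. Fibrillar collagens and collagen VI fill connective tissue, where lysyl oxidases cross-link them. MMPs and ADAMTS proteases cut matrix proteins, and TIMPs inhibit MMPs.

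Between 12197 and 14599 probes were detected per array. Of 17 fibroblast markers outside the members, 12 to 15 were detected on the serum arrays, 2 or 3 on the 2i arrays, 11 to 14 on the epiSC arrays, 13 to 16 on the rESC arrays and all 17 on the MEF array. Their summed signal, as a share of that on the MEF array, was 7.98% to 12.6% in serum, 0.485% to 1.15% in 2i, 6.08% to 7.69% in epiSCs and 6.22% to 22.3% in rESCs. In 2i, 12 of the 17 were detected on none of the 6 arrays, among them Dcn, Lum, Acta2 and Bgn. The J2.3 rESC array stood apart, with a median marker share of 20.1% against 5.73% to 8.91% on the other rESC arrays, so counts of rESC calls, and the shares it moves by over 1.5 times, are given with and without it. Of 8 endoderm markers, 4 to 7 were detected in serum, 1 to 3 in 2i, 4 to 7 in epiSCs and 1 to 6 in rESCs. The epiSC markers followed the labels, with 4 of 4 tested epiSC markers higher in epiSCs than in serum ESCs. Of 6 naive ESC markers, which epiSCs hold low, 5 were lower in epiSCs than in serum. The BL6 epiSC array, labelled epiSC, stood apart here, with all 6 naive markers detected against 1 to 5 on the other epiSC arrays. Its Esrrb level was 10.73 against 4.85 to 7.52, and its Zfp42 level was 9.46 against 4.38 to 6.36. All of Fgf5, Foxa2, Lhx1 and Fgf8 of the epiSC markers were detected on BL6 too, and counts are given below without this array.

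Between 44 and 49 of the 78 members were detected on each serum array, 23 to 33 on each 2i array, 42 to 53 on each epiSC array, 39 to 47 on each rESC array and 58 on the MEF array. Levels below are log2 normalized intensities over the 23 arrays, on which an undetected probe lies near 4 to 5. Levels of different genes come from different probes and were not set against each other. On all 22 pluripotent arrays 16 members were detected, among them Lama1, Lama5, Lamb2 and Lamc1 of the laminins, Itga3, Itgb1 and Itgb5 of the integrins, Col5a1 and Col18a1 of the collagens, both fibulins and Timp1. A further 9 members were detected on the MEF array alone, among them Col5a2, Col15a1, Itga1 and Adamts1. Another 20 were detected on a pluripotent array and not on the MEF array, among them Lama5, Lamb3, Timp4, Col9a2, Col26a1 and Mmp10.

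**Figure D1:**
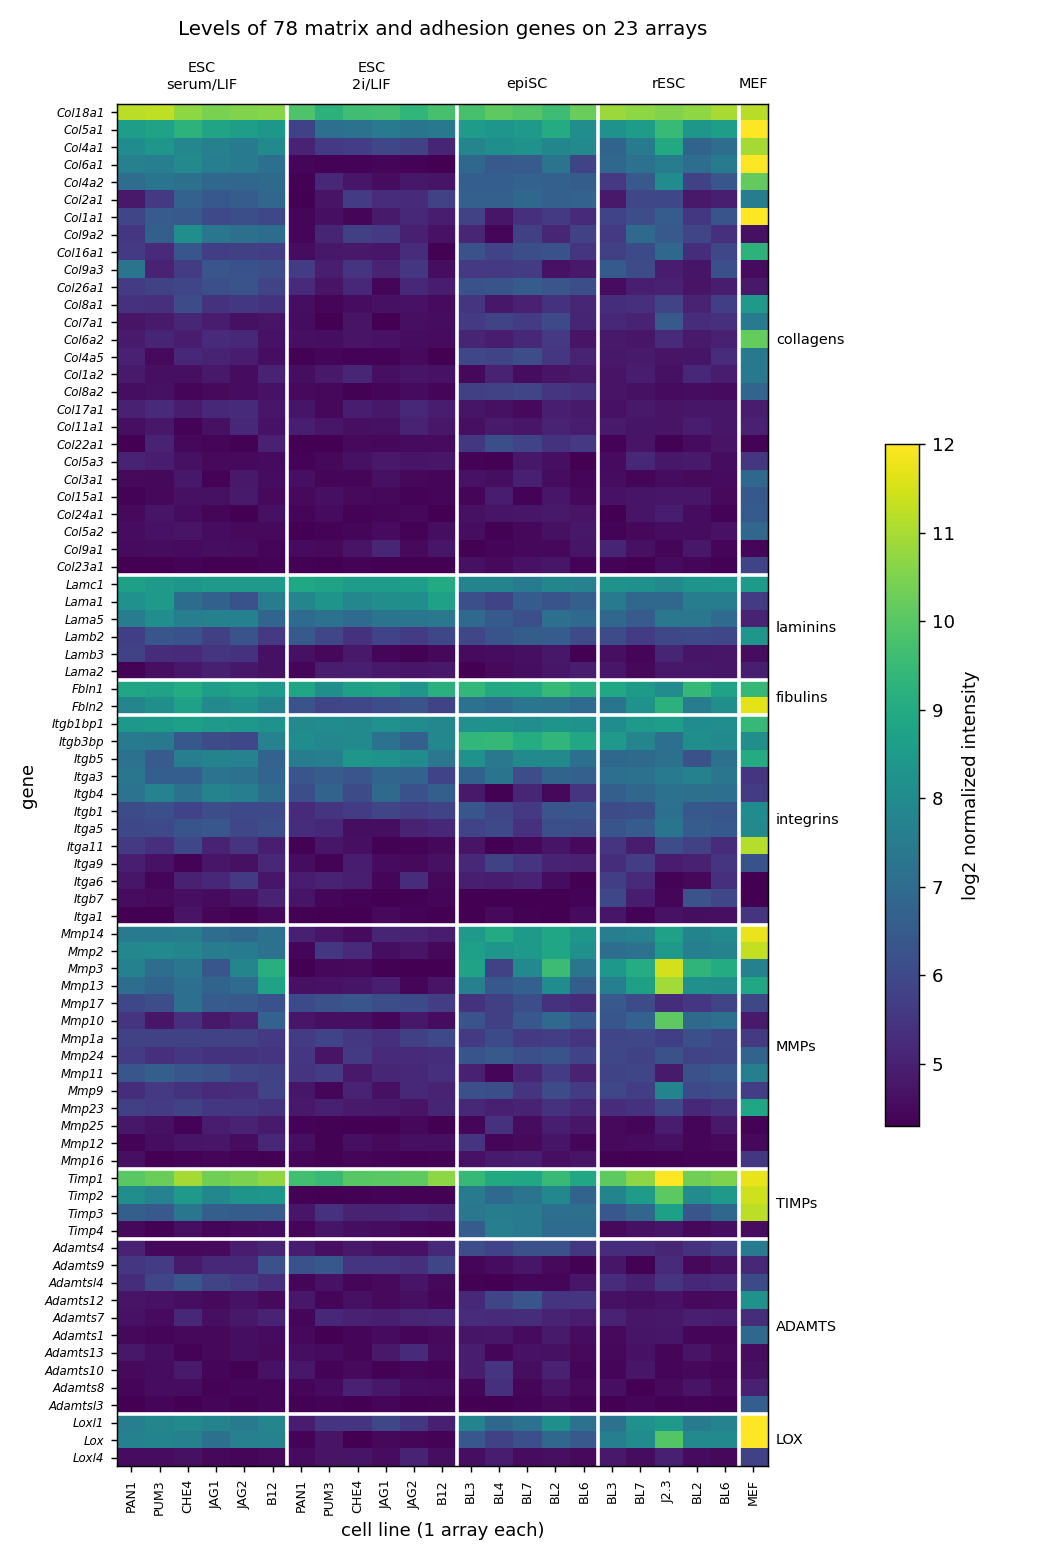
Colour gives the log2 normalized intensity of each of the 78 members (rows, by family) on each of the 23 arrays (columns, by state, labelled by cell line). The 2i columns are dark over most collagen, MMP and LOX rows, with 23 to 33 members detected per array, while the MEF column is bright in many of them, with 58 detected.

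The same 6 ESC lines differed between media chiefly in one direction. Of 42 members tested, 26 (61.9%) were lower in 2i/LIF than in serum and 0 were higher at an adjusted p under 0.01 (limma, Benjamini-Hochberg over all probes tested), where 15.4% of all 13274 probes tested were lower and 15.7% higher. At an unadjusted p under 0.05 (limma), 4 of the 42 members were higher, a smaller share than the 28% of all probes. The median difference was -0.94 over the tested members and 0.03 over all probes tested. The falls covered 10 of 12 collagens, 7 of 10 MMPs, 2 of 3 TIMPs, both tested lysyl oxidases, 3 of 7 integrin names, 1 of 2 fibulins, 1 of 2 ADAMTS members and 0 of 4 laminins. Of the 42, 10 were undetected on all 2i arrays and had to be lower to pass the filter on dim probes, and all 10 were called. Of the 17 detected on all 12 arrays, 5 were called lower. Fibroblast markers moved the same way, with 11 of 12 tested lower, and their part in these falls was not tested. Differences below are log2, first state minus second, ± SE, from the normalization of the arrays compared.

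Collagen genes and their cross-linkers held several of the largest falls. Col6a1, a chain of the microfibril-forming collagen VI, had levels of 7.13, 7.59 and 7.92 (lowest, median and highest of 6) in serum and 4.32, 4.38 and 4.45 in 2i, where no array detected it. The groups were far apart, and the difference was -3.11 ± 0.12 (adjusted p = 4.9e-10), at least 5.37-fold; such a bound sets the bright mean against the lowest detected signal, or the dim probe's own where that is higher. Lox, which cross-links collagen and elastin, went from 7.14, 7.68 and 7.78 in serum to 4.31, 4.39 and 4.71 in 2i, also undetected there (-3.11 ± 0.121, adjusted p = 4.9e-10, at least 5.58-fold). Loxl1, a relative that serves elastic fibres, differed by -2.33 ± 0.164 (adjusted p = 2.6e-07). The basement membrane collagen IV chains fell as well. Col4a1 had levels of 7.46, 7.91 and 8.38 in serum and 5.07, 5.65 and 5.93 in 2i, with 4 of 6 arrays detecting it (-2.36 ± 0.184, adjusted p = 6.1e-07). Its partner Col4a2 was detected on every serum and no 2i array (-2.25 ± 0.131, adjusted p = 3.5e-08, at least 3.72-fold). Col6a1, Lox and Col4a2, undetected on all 2i arrays, were among the members that had to be lower to pass the filter. Among the other fallers were Fbln2, a fibulin of basement membranes and elastic fibres (-2.03 ± 0.16), Col5a1, which governs the width of collagen fibrils (-1.72 ± 0.252), and Col18a1, a basement membrane collagen and the source of endostatin (-1.21 ± 0.168). Col18a1 remained bright in 2i at 9.25, 9.68 and 9.89, against 10.46, 10.64 and 11.27 in serum.

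Of 10 MMPs tested 7 fell in 2i, and of 3 TIMPs 2. Timp2, an inhibitor that also takes part in activating pro-Mmp2, had the largest difference of all members. Its levels were 7.72, 8.19 and 8.42 in serum and 4.32, 4.34 and 4.37 in 2i, undetected on all 6 arrays (-3.73 ± 0.125, adjusted p = 1.4e-10, at least 8.01-fold). Mmp2, a gelatinase, had levels of 7.16, 7.69 and 7.96 in serum and 4.41, 4.65 and 5.55 in 2i (-2.78 ± 0.198, adjusted p = 2.8e-07). Mmp14, the membrane protease that activates pro-Mmp2, was at 6.86, 7.32 and 7.57 in serum and at 4.52, 4.93 and 5.09 in 2i, undetected there (-2.37 ± 0.141, adjusted p = 4.5e-08, at least 4.44-fold). Timp2 and Mmp14, and Mmp3 and Mmp13 below, were undetected on all 6 2i arrays and among the members that had to be lower to pass the filter. Timp3, the TIMP that stays bound to matrix, differed by -1.58 ± 0.15 (adjusted p = 3.8e-06). The stromelysin Mmp3 spread widely in serum (6.35, 7.50 and 9.13) and lay between 4.22 and 4.51 in 2i (-3.15 ± 0.334, adjusted p = 9e-06, at least 5.39-fold). The collagenase Mmp13 likewise was undetected in 2i (-2.52 ± 0.275, adjusted p = 1.2e-05, at least 4.35-fold). Timp1, in contrast, an inhibitor encoded on the X chromosome, had levels of 10.03, 10.40 and 10.95 in serum and 9.52, 10.01 and 10.69 in 2i, which overlapped (-0.47 ± 0.199, adjusted p = 0.065). The MMPs that were not called were Mmp17 (-0.33, adjusted p = 0.14), Mmp24 (-0.20, adjusted p = 0.25) and Mmp1a (-0.07, adjusted p = 0.63), and of 2 ADAMTS members Adamts9 was not called (0.37, adjusted p = 0.22).

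Of the 6 laminin chains, 4 were detected on every 2i array. Lama2 and Lamb3 were detected on none and were not tested, although 5 of 6 serum arrays detected Lamb3. Lama1, the alpha chain of the laminin of early embryonic basement membranes, had levels of 6.24, 7.27 and 8.47 in serum and 7.80, 8.13 and 8.70 in 2i. These ranges overlapped, and the difference of 0.80 ± 0.333 was not called (adjusted p = 0.064). Lamc1, the gamma chain shared by most laminins, was at 8.37, 8.44 and 8.69 in serum and 8.54, 8.66 and 9.0 in 2i (0.25 ± 0.11, adjusted p = 0.077). Lama5, the alpha chain of laminin-511, was at 6.81, 7.64 and 8.08 in serum and 6.99, 7.24 and 7.36 in 2i (-0.38 ± 0.172, adjusted p = 0.086). None of the 4 tested laminin chains passed the threshold. Itgb5, the beta chain of a vitronectin receptor, differed by 0.62 ± 0.247 (adjusted p = 0.054), and Itgb3bp, whose product is also a centromere protein, by 0.76 ± 0.335 (adjusted p = 0.079). With the cell line as a block, since the same 6 lines were grown in both media, Itgb5 (adjusted p = 0.003) and Itgb3bp (adjusted p = 0.0053) were called higher, making 2 higher and 28 lower. Among the integrins called lower were Itgb4, the beta chain that pairs with Itga6 to bind laminin (-0.94 ± 0.18, adjusted p = 0.00083, its other probe -0.31 with an adjusted p of 0.068), and Itga5, the fibronectin receptor's alpha chain (-1.11 ± 0.144, adjusted p = 4.8e-05). The fall of Itgb1bp1 (-0.45 ± 0.1, adjusted p = 0.0024) rested on 1 probe, as its other probe gave 0.55 (adjusted p = 0.093).

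**Figure D2:**
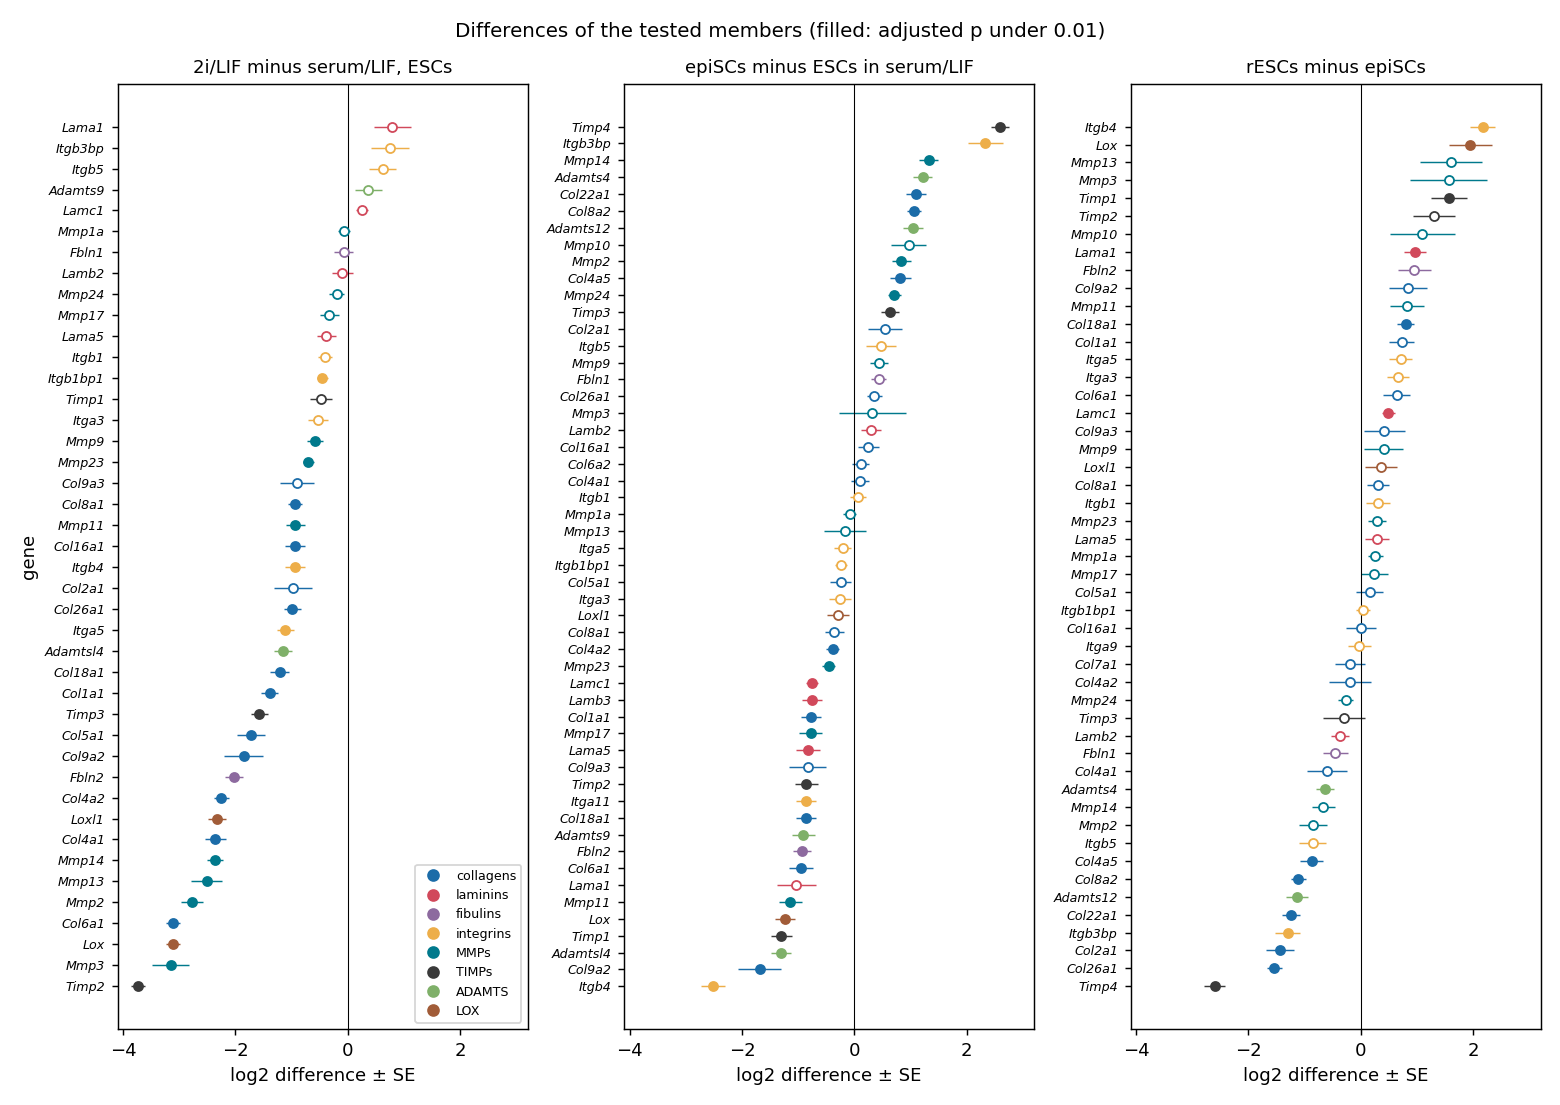
Points give the log2 difference ± SE of each tested member (rows, sorted) for 2i/LIF minus serum in ESCs, epiSCs minus serum ESCs, and rESCs minus epiSCs, coloured by family, filled at an adjusted p under 0.01. Filled points lie only on the left in the first panel (26 members) and on both sides in the second (11 higher, 19 lower) and the third (6 higher, 9 lower).

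EpiSCs differed from serum ESCs in both directions. Of 52 members tested, 11 (21.2%) were higher and 19 (36.5%) lower in epiSCs (limma), where 18.8% of all 13856 probes tested were higher and 18.3% lower. The median difference was -0.22 over the members and -0.01 over all probes. Without the BL6 epiSC array, 12 were higher and 17 lower. Every fit that left out 1 array gave fewer lower than the reported 19, at 13 to 17. The risers included 3 of 16 tested collagens, 3 of 11 MMPs, 2 of 4 TIMPs and 2 of 4 ADAMTS members, and the fallers 5 collagens, 3 MMPs, 2 TIMPs, 2 ADAMTS members, 3 of 5 laminins and 2 of 8 integrin names. Of the 52, 9 were undetected in 1 of the states and had to differ to pass the filter (5 called higher, 4 lower), while of 32 detected on all 11 arrays 5 were higher and 10 lower. Of 14 fibroblast markers tested, 3 were higher and 5 lower, and of 7 endoderm markers 2 were higher and 1 lower.

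The member that set epiSCs apart by size was Timp4, a TIMP best known from heart. Its levels were 6.54, 7.59 and 7.46 in the heterozygous lines BL3, BL4 and BL7 and 7.0 and 6.99 in the null lines BL2 and BL6. It was undetected on every serum, 2i, rESC and MEF array, at 4.33 to 4.74. It was higher in epiSCs than in serum ESCs by 2.60 ± 0.168 (adjusted p = 3.1e-07), at least 3.88-fold. Detection in epiSCs alone among the states was also seen for Col22a1, a collagen of tissue junctions (5.54, 6.15, 5.85, 5.43 and 5.59 in the same line order, undetected elsewhere). Adamts12 and Col8a2, a short-chain collagen, were found in epiSCs and MEFs only. Each was higher in epiSCs than in serum ESCs, by at least 1.5-fold (Col22a1), 1.47-fold (Adamts12) and 1.45-fold (Col8a2), and so was the aggrecan-cutting Adamts4, by at least 1.81-fold. Timp4, Col22a1, Adamts12, Col8a2 and Adamts4 were undetected on every serum array, so they had to be higher to pass the filter. Itgb3bp had 8.88 to 9.42 in epiSCs against 5.98 to 7.71 in serum (2.33 ± 0.308, adjusted p = 6e-05).

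Mmp14 and Mmp2 were brighter in epiSCs while Timp2 was dimmer. Mmp14 had levels of 8.43, 9.0, 8.46, 8.84 and 8.38 in epiSCs, above every serum array (1.32 ± 0.165, adjusted p = 4e-05). Mmp2 was at 8.64, 8.31, 8.45, 8.87 and 8.17, again above every serum array (0.84 ± 0.168, adjusted p = 0.0012). Timp2 was at 7.47, 6.93, 7.25, 7.89 and 6.76, partly within the serum range (-0.85 ± 0.2, adjusted p = 0.0033), a call lost without the BL4 epiSC array (adjusted p = 0.011). Timp1 was at 9.47, 8.98, 8.89, 9.51 and 8.92, below every serum array (-1.30 ± 0.183, adjusted p = 9.7e-05). Timp3 was higher (0.63 ± 0.161, adjusted p = 0.0054), but 8 of 11 fits that left out 1 array lost the call. Of the TIMPs, Timp3 and Timp4 thus rose and Timp1 and Timp2 fell.

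Of 5 laminin chains tested, 3 were lower in epiSCs (Lamc1, Lama5 and Lamb3), and so was the laminin-binding Itgb4. Itgb4 was at 4.83, 4.36, 5.11, 4.48 and 5.50, with 2 of 5 arrays detecting it, against 7.01 to 7.73 in serum (-2.51 ± 0.212, adjusted p = 2.1e-06). Its other probe was also called lower, by a smaller margin (-0.72, adjusted p = 0.00078). Lamc1 was at 7.78, 7.77, 7.47, 7.84 and 7.71, below every serum array (-0.75 ± 0.107, adjusted p = 0.00011). Lama1 was at 6.18, 5.87, 6.55, 6.29 and 6.64, which overlapped the serum range (-1.03 ± 0.35, adjusted p = 0.025, not called), and Lamb2, a beta chain, differed by 0.30 ± 0.177 (adjusted p = 0.18, not called). Lamb3, a chain of the epithelial laminin-332, was detected on 5 of 6 serum arrays and no epiSC array (-0.75 ± 0.177, adjusted p = 0.0035). Lamb3, and Adamtsl4 below, had to be lower to pass the filter, as no epiSC array detected them. Lama5 differed by -0.83 ± 0.219 (adjusted p = 0.0069), a call lost in 8 of 11 fits without 1 array. Other fallers were Lox (-1.24 ± 0.178, adjusted p = 0.00011), the cartilage collagen chain Col9a2 (-1.69 ± 0.381, adjusted p = 0.0026), the ADAMTS-like Adamtsl4, which binds fibrillin microfibrils (-1.30 ± 0.181, adjusted p = 8.5e-05, at least 1.57-fold), and Mmp11, a stromelysin-named protease (-1.14 ± 0.206, adjusted p = 0.00059). The collagen IV chains diverged in their calls. Col4a1 was not called (0.10 ± 0.16, adjusted p = 0.62), Col4a2 was lower by a small margin (-0.39 ± 0.108, adjusted p = 0.0093, lost in 10 of 11 fits without 1 array), and Col4a5, a chain of another collagen IV trimer, was higher (0.82 ± 0.193, adjusted p = 0.0034, lost without BL3, BL4 or BL7).

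Comparing rESCs with epiSCs, which shares the epiSC arrays with the comparison above, gave 6 of 49 tested members higher (12.2%) and 9 lower (18.4%), near the 10.6% and 12.5% of all 13418 probes tested. With all 22 pluripotent arrays fitted together 11 were higher, without the BL6 epiSC array 10 were lower, and without the BL6 epiSC and J2.3 rESC arrays 15 were lower. The median difference was 0.26 over the members and 0.0010 over all probes. Of the 49, 5 were undetected in rESCs and had to be lower. Itgb4 was at 6.63, 6.84, 7.19, 7.13 and 7.12 in rESCs (lines BL3, BL7, J2.3, BL2 and BL6), above every epiSC array (2.17 ± 0.225, adjusted p = 3.9e-05). Lama1 was at 7.47, 6.89, 6.90, 7.55 and 7.54, also above every epiSC array (0.97 ± 0.195, adjusted p = 0.0025). Col18a1 (0.80 ± 0.146, adjusted p = 0.0014) and Lamc1 (0.49 ± 0.118, adjusted p = 0.0071) were higher too, the latter call being lost in 9 of 10 fits that left out 1 array. Without J2.3 the differences were 2.14 for Itgb4 (adjusted p = 0.00012), 1.06 for Lama1 (adjusted p = 0.0017) and 0.85 for Col18a1 (adjusted p = 0.0013).

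The other risers were Lox and Timp1, both brightest on the J2.3 array. Lox was at 7.63, 8.01, 9.95, 7.97 and 7.96 in rESCs and 5.81 to 6.90 in epiSCs (1.95 ± 0.381, adjusted p = 0.0021), and without J2.3 it was higher by 1.55 (adjusted p = 0.00024). Timp1 was at 10.10, 10.71, 12.13, 10.34 and 10.50, above every epiSC array (1.57 ± 0.324, adjusted p = 0.0029), and without J2.3 it was higher by 1.23 (adjusted p = 0.00048). Leaving out J2.3 does not remove fibroblast markers from the comparison. Their median share was 5.73% to 8.91% on the other rESC arrays and 5.21% to 6.43% on the epiSC arrays. Of 14 fibroblast markers tested, 3 were higher and 0 lower in rESCs, or 3 and 2 without J2.3, and their part in these differences was not tested.

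The members that fell from epiSCs to rESCs were led by Timp4. Timp4 lay at 4.46 to 4.74 in rESCs, undetected on all 5 arrays (-2.60 ± 0.187, adjusted p = 3.7e-06, at least 3.98-fold). Col26a1, one of the smaller collagens, was at 6.24, 6.29, 6.55, 6.33 and 6.16 in epiSCs and 4.55, 4.95, 5.0, 4.69 and 4.91 in rESCs, undetected there (-1.54 ± 0.133, adjusted p = 1.2e-05, at least 2.28-fold). Col2a1, the main collagen of cartilage, was at 6.65 to 6.87 in epiSCs and at 4.81, 5.95, 5.96, 4.83 and 4.95 in rESCs (-1.44 ± 0.25, adjusted p = 0.001). This rested on its brightest probe, as the other 2 gave -0.93 (adjusted p = 0.012) and -0.46 (adjusted p = 0.25), which were not called. Col22a1, Adamts12 and Col8a2, undetected in rESCs, fell by at least 1.5-fold, 1.46-fold and 1.44-fold, and had to differ to pass the filter, as did Timp4 and Col26a1. Itgb3bp fell as well (-1.30 ± 0.221, adjusted p = 0.00088). The falls of Col4a5 and Adamts4 were each lost in 8 of 10 fits without 1 array. With J2.3 left out, 7 members were higher and 11 lower, the new calls being Col4a1 (-0.98, adjusted p = 0.0013), Mmp2 (-1.06, adjusted p = 0.0013), Mmp14 (-0.85, adjusted p = 0.0018), Timp3 (-0.72, adjusted p = 0.0058) and, higher, Mmp11 (1.10, adjusted p = 0.0039), while Col4a5 and Adamts4 were no longer called.

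**Figure D3:**
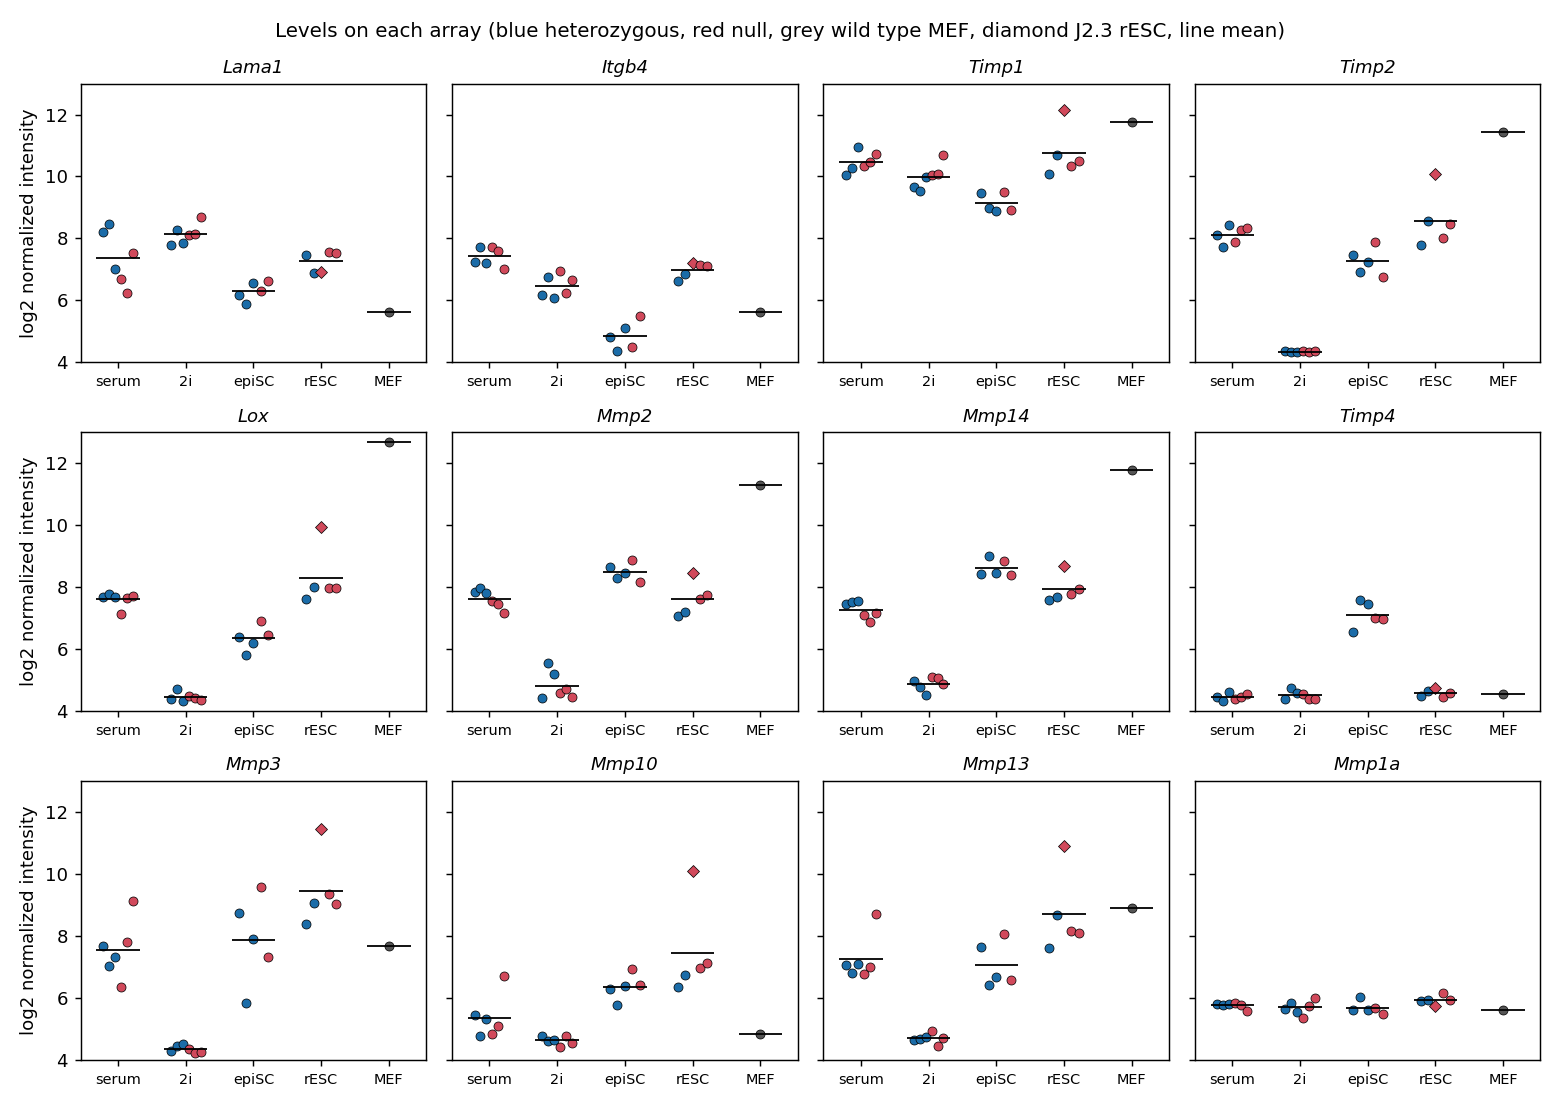
Points give the log2 normalized intensity of 12 members on each array, by state, in blue for heterozygous lines, red for null lines and grey for the wild-type MEF array, with the J2.3 rESC array as a diamond and lines at the mean. Timp4 stands out in epiSCs alone (6.54 to 7.59), Timp2 and Lox sit at the background in 2i, and J2.3 is the highest rESC point for Mmp3, Mmp10, Mmp13, Lox and Timp2.

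Few members were called between rESCs and serum ESCs, the reverted and the blastocyst-derived cells. Of 46 members tested, 0 were higher and 1 was lower in rESCs (2.17%), where 0.0519% of all 13495 probes tested were higher and 0.141% lower. At an unadjusted p under 0.05 (limma), 10 of the 46 members were higher and 10 of the 46 lower. Both are larger shares than the 14% and 12.3% of all probes tested. The median difference was -0.06 over the members and 0.0035 over all probes, and without J2.3 the counts were again 0 higher and 1 lower. The member called was Col26a1, at 5.63, 5.91 and 6.27 in serum and undetected in rESCs (-1.17 ± 0.148, adjusted p = 0.0049, at least 1.76-fold), and 7 of 11 fits without 1 array lost it. Being undetected in rESCs, Col26a1 had to be lower to pass the filter. Of 34 members detected on all arrays of both states, 0 were called. Itgb4 (-0.43 ± 0.17, adjusted p = 0.13), Lama1 (-0.09 ± 0.364, adjusted p = 0.9) and Timp1 (0.29 ± 0.318, adjusted p = 0.58) were not called here. These comparisons share arrays with those above, so no overlap between them is given. Among the uncalled members, the largest differences were of 3 neighbouring proteases.

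Mmp3, Mmp10 and Mmp13 had the widest spread between rESC arrays of all members. Mmp3 was at 8.39, 9.07, 11.46, 9.35 and 9.04 in rESCs (BL3, BL7, J2.3, BL2 and BL6) and 8.74, 5.82, 7.92, 9.58 and 7.31 in epiSCs (BL3, BL4, BL7, BL2 and BL6). Mmp10, a second stromelysin, was at 6.35, 6.73, 10.09, 6.98 and 7.14 in rESCs, 5.76 to 6.95 in epiSCs and 4.78, 5.20 and 6.71 in serum, with 3 serum arrays detecting it and neither the MEF nor any 2i array. Mmp13 was at 7.63, 8.68, 10.92, 8.15 and 8.11 in rESCs, 6.43 to 8.06 in epiSCs and 6.77, 7.04 and 8.73 in serum. For all 3 the J2.3 array was the highest of the 23, and the B12 array was the highest in serum for each of them. The differences between rESCs and serum ESCs were 1.92 ± 0.543 for Mmp3 (adjusted p = 0.058), 2.12 ± 0.59 for Mmp10 (adjusted p = 0.056) and 1.46 ± 0.534 for Mmp13 (adjusted p = 0.11). Without J2.3 they were 1.42 (adjusted p = 0.061), 1.47 (adjusted p = 0.032) and 0.90 (adjusted p = 0.12). Mmp10 passed only when all 22 pluripotent arrays were fitted together (2.10, adjusted p = 0.0055). Mmp1a, the mouse relative of human MMP1, lay between 5.37 and 6.17 on all 22 pluripotent arrays and at 5.60 in MEFs.

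These proteases are neighbours in a cluster on mouse chromosome 9, in the order Mmp13, Mmp12, Mmp1b, Mmp3, Mmp1a and Mmp10, followed by Mmp8, Mmp27, Mmp20 and Mmp7. The bases before their start sites are shown because 4 of the 5 members in the cluster carry the same pair of motifs. Capitals mark an AP-1 motif, TGACTCA on either strand (TGAGTCA when read on the other), and the TATA motif TATAAA, and the marked motifs do not overlap each other. The stretches, 110 bases up to the base before the RefSeq start (GRCm38.p6, plus strand), are chr9:7445712-7445821 for Mmp3, chr9:7502232-7502341 for Mmp10, chr9:7272404-7272513 for Mmp13 and chr9:7464031-7464140 for Mmp1a.
Mmp3: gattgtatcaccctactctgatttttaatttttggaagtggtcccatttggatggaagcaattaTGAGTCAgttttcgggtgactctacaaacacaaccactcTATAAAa
Mmp10: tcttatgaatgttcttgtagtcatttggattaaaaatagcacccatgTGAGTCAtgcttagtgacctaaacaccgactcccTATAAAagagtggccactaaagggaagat
Mmp13: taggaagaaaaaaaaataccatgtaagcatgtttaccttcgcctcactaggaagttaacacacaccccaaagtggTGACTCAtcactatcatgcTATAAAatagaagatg
Mmp1a: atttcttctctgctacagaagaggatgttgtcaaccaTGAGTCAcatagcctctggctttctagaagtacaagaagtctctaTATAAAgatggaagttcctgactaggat
In 250 bases before the start of all RefSeq genes in the table, 4.46% of 32851 windows held TGACTCA on either strand, 12.4% held TATAAA on either strand, and 0.721% held both. Of 58 members with a window, 6 held the AP-1 motif (Col6a1, Mmp3, Mmp10, Mmp12, Mmp13 and Mmp1a) and 4 held both (Mmp3, Mmp10, Mmp13 and Mmp1a). Mmp1a, flat across the arrays, and Mmp3, Mmp10 and Mmp13, which varied widely, all carried both motifs. A match describes the letters alone, and binding was not measured here. Probe sequences were not used, so cross-hybridization between these related genes was not checked.

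Against the MEF array, the members ranged from a small fraction of its signal to several times it. The share is an array's normalized signal above the offset, divided by that on the 1 MEF array, so it has no test. Only members detected on all arrays of a state and in MEFs are counted, so low shares are left out. Of 36 such members in serum, 16 in 2i, 34 in epiSCs and 32 in rESCs, 6, 6, 6 and 7 exceeded the MEF signal. Among genes with a MEF level of 10 or more, a limit chosen after the values were seen, 16 members and 9 fibroblast markers can be set side by side. The median share per array was 4.38% to 7.0% for these members in serum and 6.64% to 10% for the markers, 0.416% to 0.896% and 0.251% to 0.528% in 2i, and 3.36% to 6.42% and 4.89% to 7.93% in epiSCs. In rESCs it was 3.38% to 14.2% and 5.31% to 20.1%. Under this limit, the member median lay below the marker median on every serum and rESC array. In 2i, where many of these genes were undetected, it lay above on every array but PAN1 (0.416% against 0.488%). In epiSCs it lay above on BL3 and BL2 only. The order depended on the limit. Over all 58 members and 17 markers detected in MEFs, the serum medians were 10.4% to 13.2% for members and 6.64% to 9.78% for markers. They were 6.64% to 7.79% and 0.699% to 1.26% in 2i, and 13.2% to 19% and 5.21% to 6.43% in epiSCs. In rESCs the member median lay above on every array but J2.3, where both were 20.1%.

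Single members spread widely around these medians. Mean shares in serum were 2.59% for Col6a1, 0.929% for Col1a1, a fibrillar collagen chain, 2.76% for Lox, 4.57% for Loxl1, 4.05% for Mmp14 and 7.45% for Mmp2. The part of feeder or other fibroblasts in these signals was not tested. Lama1, in contrast, had mean shares of 522% in serum, 822% in 2i, 193% in epiSCs and 425% in rESCs. Itga3, an alpha chain of a laminin receptor, had 390%, 254%, 320% and 527% in the same order, and Itgb4 473%, 224%, 42.5% and 334%. Only 2 of 5 epiSC arrays detected Itgb4, and its epiSC shares ran from 13.5% to 87.3%. The MEF levels of Lama1, Itga3 and Itgb4 were low, at 5.63, 5.48 and 5.63. Their shares thus divide by a dim signal on 1 array, and their size is uncertain. Lamb2, in turn, had 15.9%, 14.5%, 20.6% and 14.6%, and Itgb1, the common beta chain of laminin, collagen and fibronectin receptors, 20.0%, 13.7%, 21.9% and 29.0%. Lama5, Timp4, Mmp10, Col9a2, Col9a3 and Col26a1, undetected in MEFs, have no share. Lamc1 stood near the MEF signal (98.5%, 118%, 56.6% and 81.7%), as did Fbln1, a fibulin of basement membranes (61.6%, 59.7%, 84.6% and 63.7%). Col18a1 was at 79%, 33.8%, 42.7% and 75%, and Timp1 at 41.5%, 30.3%, 16.4% and 57.5%. Mmp3 had 112% in serum and 510% in rESCs (264% without J2.3), and Mmp13 33.8% and 130% (59.1% without J2.3). For Col4a1 and Col4a2 the shares were 11.4% and 10.2% in serum, 1.58% and 0.978% in 2i, 12.2% and 7.4% in epiSCs, and 9.58% and 8.07% in rESCs (5.85% and 4.65% without J2.3), the 2i value of Col4a2 being a background floor since no array detected it.

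**Figure D4:**
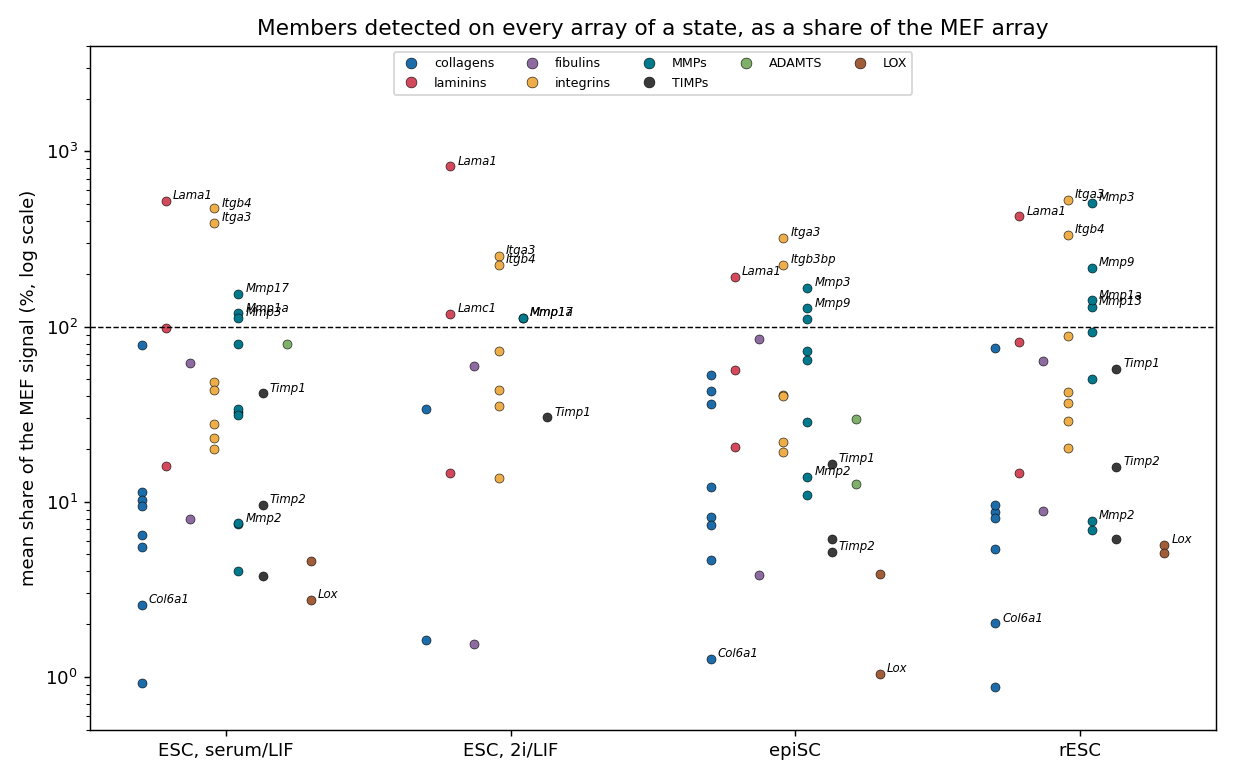
Points give the mean share of the MEF signal (percent, log scale) of each member detected on every array of a state and on the MEF array, coloured by family, so members not detected on some array are missing. Lama1, Itga3 and, outside epiSCs, Itgb4 lie above the dashed line at 100%, and 16 members are plotted in 2i against 36 in serum.

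Other lists of matrix genes were counted in the same fits, with members called in both directions. Of 13 named collagen-processing genes, 5 of 11 tested were lower in 2i than in serum (15.4% of all probes), among them P4ha2, a prolyl hydroxylase (-2.02 ± 0.241), and Bmp1, which trims procollagen (-1.89 ± 0.146). In epiSCs against serum, where 18.8% of all probes were higher and 18.3% lower, 4 of 11 were higher, among them the collagen chaperone Serpinh1 (1.58 ± 0.193) and Bmp1 (1.35 ± 0.177), and 3 lower, among them Pcolce2 (-2.13 ± 0.265), an enhancer of that trimming. In rESCs against epiSCs, where 10.6% of all probes were higher and 12.5% lower, 3 of 12 were higher, among them Pcolce2 (2.14 ± 0.25), and 3 lower (4 without J2.3), among them Serpinh1 (-2.09 ± 0.243). Of 10 other basement membrane and adhesive glycoproteins, 5 of 9 tested were lower in epiSCs than in serum, among them Nid1, which links laminin to collagen IV (-1.82 ± 0.244), the proteoglycan Hspg2 (-1.74 ± 0.144) and fibronectin Fn1 (-1.72 ± 0.144), while vitronectin Vtn was higher (2.34 ± 0.299). In rESCs against epiSCs 4 of 9 were higher, among them Fn1 (1.97 ± 0.185), and Vtn was lower (-2.44 ± 0.335). In 2i against serum 1 of 8 was higher (Smoc1, 0.60 ± 0.135) and 1 lower (Hspg2, -1.36 ± 0.125). Of 14 integrin adaptors, 3 of 9 tested were lower in 2i, among them the focal adhesion protein Zyx (-2.61 ± 0.214), which was higher in epiSCs (1.41 ± 0.182). Between rESCs and serum ESCs, 0 of the 12, 8 and 10 genes tested in these 3 lists were called (limma), where 0.0519% of all probes were higher and 0.141% lower. At an unadjusted p under 0.05 (limma), 3, 2 and 0 passed, where 14% of all probes were higher and 12.3% lower.

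Null lines were compared with heterozygous lines on the same arrays. Each line has a single genotype, so a difference between genotypes is also one between lines. Of 56 members tested, 0 were called over the 4 states together (limma with the cell line as a random block), where 0.00646% of all 15478 probes were called, and 0 in serum, 2i, epiSCs and rESCs alone, where 0.00646%, 0.0194%, 0% and 0% were. At an unadjusted p under 0.05 (limma), 2 members (3.57%) passed over all states, against 10.3% of all probes. In serum 5 (8.93%) passed against 6.47%, and in 2i 0 against 4.17%. In epiSCs 2 (3.57%) passed against 13.3%, and in rESCs 7 (12.5%) against 7.55%. The lowest unadjusted p over all states was that of Itgb1 (0.32 ± 0.117, null minus heterozygous, limma adjusted p = 0.32). In serum it was that of Lama1 (-1.08 ± 0.348, limma adjusted p = 0.68), in epiSCs Col4a5 (-0.71 ± 0.221, limma adjusted p = 0.14), and in rESCs Mmp2 (0.82 ± 0.289, limma adjusted p = 0.52), where J2.3 is 1 of the 3 null arrays. A p that misses the threshold does not show that the genotypes are alike.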

How the data were processed

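The authors deposited bead signals of Illumina Mouse WG-6 v2.0 arrays as linear intensity, with no background subtraction or normalization between arrays. A detection p-value deposited with each intensity ranks a probe among about 936 negative controls of its array. The authors also deposited a table of log2 values, made with lumi by variance-stabilizing transformation and quantile normalization, used here as an alternative only. No source used here gives hybridization batches. Precision is limited by the number of arrays.

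Intensities were corrected and quantile-normalized with neqc of limma 3.58.1 (R 4.3.3, statmod 1.5.0; offset of 16), separately for each comparison, and once on all 23 for levels. A probe entered a test when its detection p was under 0.01 on at least the number of arrays in the smaller group (5 arrays for genotype, fitted over 22 arrays with the line as a random block, correlation 0.155). Calls needed a Benjamini-Hochberg adjusted p under 0.01 over all probes tested, the threshold of the methods. The step was tested on simulated data. Of the probes, 17604 carry 1 symbol, 8 several and 2870 none, while 24799 outside the value table were left unnamed. All 78 member symbols were found in RefSeq by Entrez number. The 2 columns of J2.3 epiSCs were not used in any step. In 59 pairs of a member's brightest and another tested probe, 8 differed in sign, none with both called, and in 5 only the brightest and in 2 only the other was called.

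Members named are those with the largest called changes by comparison (8 each way) and family (3), the 10 brightest in 2i, the 10 farthest above MEFs, and Col4a1 and Col4a2, with up to 3 called genes of each other list. Any other gene named was chosen after its values were seen. The members and lists were chosen with earlier results of these data known. Serum and 2i arrays were paired by the labels' shared line names, with same-line deviations correlating at r from 0.117 to 0.452. In rESCs and epiSCs of the 4 shared lines, r was 0.493, 0.226, 0.541 and, for BL6, -0.137. Alternatives were the authors' table, no background correction, no filter, the mean over probes, an adjusted p under 0.05, all 22 arrays fitted together, blocks, and leaving out each array.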

Additional observations from a re-analysis of the deposited data

Results flagged for a closer look

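In 128 groups of 5 or 6 arrays, 14 held a highest or lowest level set apart from the rest by Dixon's criterion, where chance gives about 1 in 20 groups. Of these, 5 were the J2.3 rESC array, which also held the highest fibroblast marker share (20.1%). Its log2 levels were 10.09 for Mmp10 (others 6.35 to 7.14), 9.95 for Lox (7.63 to 8.01), 9.53 for Col5a1 (8.25 to 8.60), 8.69 for Timp3 (6.33 to 6.89) and 7.29 for Itga5 (6.29 to 6.55). The part of fibroblasts in them was not tested.

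The B12 serum array was highest for Mmp13 at 8.73 (others 6.77 to 7.10) and for Mmp10 at 6.71 (4.78 to 5.46). Lox was low on the JAG1 serum array at 7.14 (7.66 to 7.78), Timp3 high on CHE4 at 7.32 (6.45 to 6.63) and Lamc1 high on PAN1 at 8.69 (8.37 to 8.46). The PAN1 array in 2i had 5.80 for Col5a1 (7.10 to 7.47). In rESCs, Itgb5 was at 6.20 on BL2 (6.91 to 7.15) and Col4a5 at 5.26 on BL6 (4.72 to 4.85). In epiSCs, Col2a1 was at 6.87 on BL7 (6.65 to 6.72).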

How the results depend on the processing

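With the cell line as a replicate block, members called higher in 2i numbered 2 in place of 0, and no call was lost there. Members higher in rESCs than in epiSCs numbered 6 by the reported fit, 13 at an adjusted p under 0.05 and 11 with all 22 pluripotent arrays fitted together. Members lower numbered 15 in place of 9 without the BL6 epiSC and J2.3 rESC arrays. Over the 4 lines with both states, the replicate block gave 7 higher and 10 lower, as did the same arrays without it. Members higher in rESCs than in serum numbered 1 at an adjusted p under 0.05 and 1 with all 22 arrays, and members lower 0 with the authors' table, without background correction, without the filter and with the replicate number as a block, which pairs no lines. The difference of Itgb1bp1 between 2i and serum turned from -0.45 to 0.0493 (adjusted p = 0.78) as the mean over its probes. The causes were not tested.

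Leaving out 1 array at a time gave 26 to 29 members lower and 0 higher in 2i. In epiSCs against serum it gave 9 to 12 higher and 13 to 17 lower, so no such fit reached the reported 19 lower. It gave 5 to 7 higher and 7 to 11 lower in rESCs against epiSCs, and 0 higher and 0 to 1 lower in rESCs against serum. Over the named changes, 610 such fits kept the call, 62 lost it and 0 changed sign. Every count between genotypes was 0 under the alternatives run, namely no block, the authors' table, an adjusted p under 0.05 and each array left out. Signals near background and 5 or 6 arrays per state limit dim members, for which folds are lower bounds.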
